A study of Homo sapiens with 8 samples.

Results

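Interferon-stimulated genes are the genes that cells switch on when interferons bind their receptors, and 41 of them were followed here across 4 treatments of one cell line. The 41 are listed by symbol, as a list made with earlier results of these data known, and 40 of them had a row among the 31721 genes of the expression table (the expression of RSAD2 was not analysed here). The cells were A2780, an established human ovarian carcinoma line, exposed for 24 hours to DMSO (the solvent), olaparib, palbociclib or olaparib and palbociclib together, with 2 libraries in each of the 4 groups. Olaparib blocks PARP1 and PARP2, enzymes that help repair DNA strand breaks, and palbociclib blocks CDK4 and CDK6, the partners of cyclin D that drive cells out of G1. All groups share the same cell line, and the doses are not stated in the sources used. The labels call the libraries biological repeats without saying that they came from separate cultures, so p-values measure the spread between these libraries, which may be partly technical.

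Interferons are secreted proteins that signal through receptors coupled to the kinases JAK1, TYK2 and JAK2. In the type I response the kinases activate STAT proteins, among them STAT2, which with IRF9 forms part of a complex (ISGF3) that binds a short DNA element, the interferon-stimulated response element (ISRE), in front of its target genes. The targets include sensors of foreign RNA, enzymes that degrade RNA, proteins that block viral translation or entry, the ubiquitin-like protein ISG15 with its enzymes, and the signalling factors themselves. Many tumour cells transcribe part of this set without added interferon, and damaged DNA or RNA in the cytosol is one known trigger of the pathway.

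Expression was given as FPKM, reads per kilobase of exon with the authors' scaling for library depth. The whole reads behind the values gave 20566158 to 34057055 reads per library. The label describes the cells as epithelial. None of the 5 epithelial marker genes with a row (EPCAM, CDH1, KRT8, KRT18 and KRT19) averaged 1 FPKM, and CDH1 stayed at 0 to 0.0124. The summed level of the 5 was 0.423 to 0.453 FPKM with DMSO, 0.528 to 0.645 with olaparib, 1.10 to 1.12 with palbociclib and 1.18 to 1.40 with the combination. The sum mostly followed EPCAM, which averaged 0.194 FPKM with DMSO, 0.357 with olaparib, 0.766 with palbociclib and 0.906 with the combination. KRT8 averaged 0.144 with DMSO and 0.215 with the combination. The part of these genes in the results was not tested. Of the ovarian lineage genes PAX8 and MUC16 were at or near 0, while 4 of 5 fibroblast genes, led by COL3A1, were expressed (summed level 202.9 to 226.3 FPKM over the 8 libraries). The 6 leukocyte genes with a row summed to 0.504 to 1.01 FPKM and none averaged 1, and leukocytes are cells in which many of the members are abundant. In whole cultures such as these, fewer cells that express a gene and less RNA per cell cannot be told apart.

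Only part of the set was transcribed in A2780. A mean of at least 1 FPKM over the 8 libraries was taken as expressed, and 21 of the 40 members reached it, or 52.5% against 39.2% of all genes in the table. In the expressed class 10 members averaged at least 10 FPKM and 11 lay between 1 and 10, with 734 to 137746 reads each over the 8 libraries. Another 10 averaged 0.1 to 1 FPKM (IRF1, IRF9, HERC6, OAS3, OASL, PARP9, IFI27, IFI44, IFI44L and LGALS3BP). The remaining 9 were near silent, below 0.1 FPKM (IFIH1, OAS1, OAS2, PARP12, MX1, MX2, ISG20, SAMD9 and XAF1), with between 2 and 95 reads each in all 8 libraries together. The limit separated PARP9, at 0.983 FPKM, from IFIT2, at 1.21. Among the 21 expressed members the entry blocker IFITM3 led with a mean of 207 FPKM, followed by the RNA editing enzyme ADAR at 75.9, IFITM2 at 28.4, the ubiquitin ligase TRIM25 at 26.3 and IFITM1 at 26.1.

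**Figure D1:**
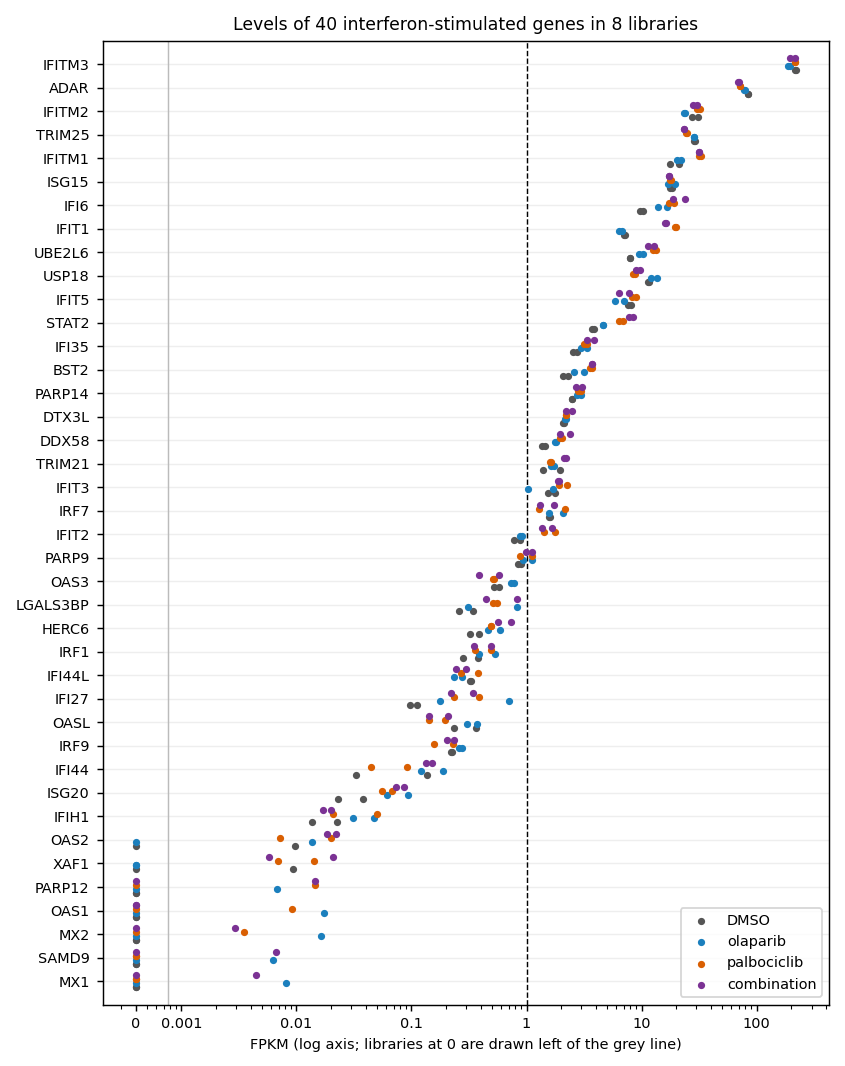
FPKM of the 40 members with a row (1 line per gene, ordered by mean) in the 8 libraries, coloured by treatment, on a log axis whose dashed line marks 1 FPKM; libraries at 0 are drawn left of the grey line. The set runs from IFITM3, with a mean of 207 FPKM, to MX1, which had reads in 2 of 8 libraries.

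Most but not all members with a promoter carried the motif the family is known for, among expressed members and among those below 1 FPKM. RefSeq promoters on GRCh38.p14 (250 bases before to 50 bases after the start, 300 in all) were found for 34 of the 41 members, RSAD2 included; those of IRF7, USP18, OAS2, OASL, IFIT2, IFITM2 and MX2 were not used. The ISRE core, which is TTTC, any 2 bases and TTTC again, searched on both strands, was present in 23 of the 34 members (67.6%) and in 3.57% of all 35116 promoters, or, counted like the members by gene with any promoter, in 4.38% of 27305 genes. The gamma-interferon element GAS, written TTCNNNGAA with N for any base (its own reverse complement), was present in 9 of 34 members (26.5%) and in 7.66% of all promoters, or 9.38% of genes. Matches to both motifs were counted wherever they lay, also where they overlapped. The ISRE core was present in 11 of 17 expressed members and in 11 of 16 members below 1 FPKM. Among the near-silent members 5 of 7 had it. A match describes the letters only and says nothing of whether a factor was bound.

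With olaparib alone, 5 of the 21 expressed members passed the test, against 14.6% of the 12443 genes tested. The members that rose were IFI6, a mitochondrial survival factor, UBE2L6, the conjugating enzyme of ISG15, and STAT2, and those that fell were IFITM2 and IFITM3, which block virus entry at endosomes. That is 3 higher and 2 lower, where 4.13% of all genes were higher and 10.5% lower. Changes were small: IFI6 rose by 0.56 ± 0.13 on the log2(FPKM + 1) scale (SE; limma with Benjamini-Hochberg adjusted p = 0.0329), and the other 4 moved by less than 0.3. The median change of the 21 members was 0.05, and that of all genes was −0.03 (0.03 under TPM, for which the member median is not given). All 5 calls were lost, giving 0 higher and 0 lower, without either DMSO library, without either olaparib library and without either palbociclib library, which shares only in the estimate of spread. They were lost also when genes below 1 FPKM were added to the fit.

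With palbociclib alone, 11 of the 21 members passed the test, 8 higher and 3 lower, where 50.1% of all genes tested passed, 18.7% higher and 31.4% lower. The share called is thus close to that of all genes. On the log2(FPKM + 1) scale IFIT1, which binds viral RNA caps, rose most. It was followed by IFI6, IFITM1, STAT2, UBE2L6, the virus tether BST2, IFIT2 and the RNA sensor DDX58 (RIG-I). That scale understates changes of low genes. By ratio of means to DMSO, IFIT2 at 1.91 came next after IFIT1 at 2.76, ahead of IFI6 at 1.81. USP18, ADAR and TRIM25 fell in the scaling as deposited, and under quantile normalisation 1 of the 3, USP18, kept its call. The median change of the 21 members was 0.16, against −0.05 for all genes. The latter turned to 0.04 when each library was rescaled to TPM, which moves the members as well. The member median under TPM is not given here, so 0.16 and 0.04 are on different scalings. The counts higher ran from 6 to 9 when each library was left out in turn, and 3 were lower each time.

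With the combination, 12 of 21 members passed, 9 higher and 3 lower, where 56.8% of all genes passed, 21.5% higher and 35.3% lower. IFI35, an interferon-induced protein that binds other such proteins, joined the 8 that rose with palbociclib, where its limma adjusted p was 0.0511. USP18, ADAR and TRIM25 were again lower as deposited, with ADAR at 0.03, above DMSO, under quantile normalisation. The median of the 21 members was 0.15 and that of all genes −0.06. Rescaling each library to TPM moved the median of all genes by 0.12 in this comparison, to 0.06, and the member median under TPM is not given. When 1 library was left out, 8 to 10 members were higher. All 3 comparisons use the same DMSO libraries. By limma on the values as deposited IFI6, STAT2 and UBE2L6 passed in all 3, and 7 of the 21 in none of them (DTX3L, IFIT3, IFIT5, IRF7, ISG15, PARP14 and TRIM21). Of these 7, voom called PARP14 in all 3 and IFIT5 with olaparib (also called by limma with the replicate block), and under TPM PARP14, DTX3L and TRIM21 passed with the combination. The shares of all genes that passed in all 3 or in none were not counted.

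**Figure D2:**
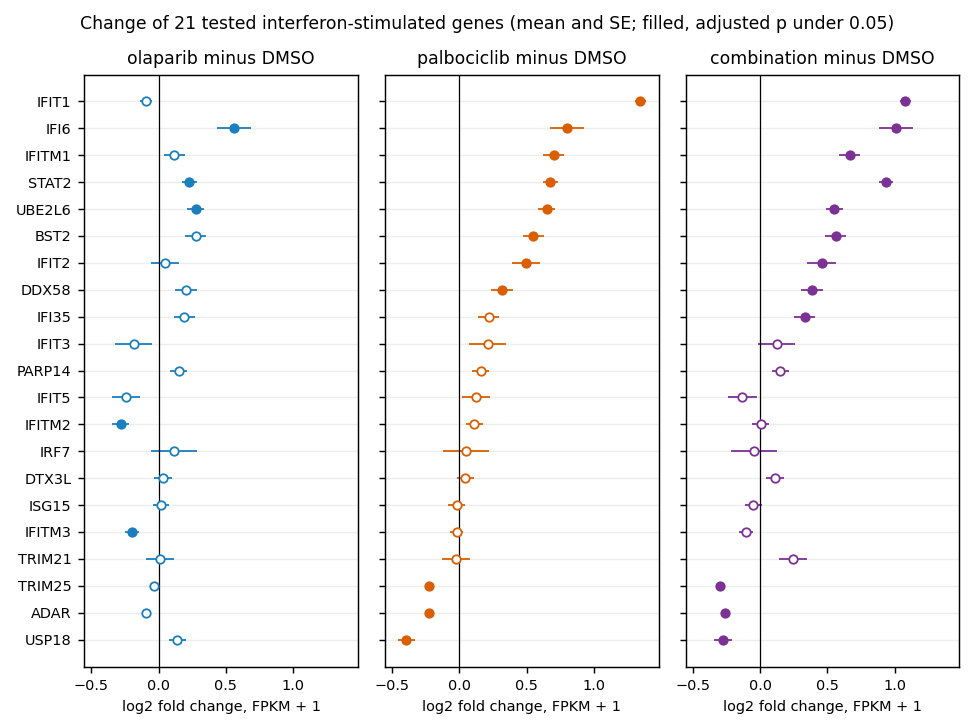
Log2 fold change of FPKM + 1 (horizontal, with SE) for the 21 expressed members in each treatment against DMSO, ordered by the palbociclib value; filled points passed limma at an adjusted p under 0.05. IFIT1 reached 1.35 with palbociclib and 1.08 with the combination; TRIM25, ADAR and USP18 lie left of 0 in both panels as deposited, and ADAR lies at 0.03 with the combination under quantile normalisation.

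Adding palbociclib to olaparib gave 8 higher and 3 lower members of 21, where 44.4% of all genes passed, 17% higher and 27.4% lower. Those higher were IFIT1, STAT2, IFITM1, IFI6, IFIT2, IFITM2, BST2 and UBE2L6, and those lower were USP18, TRIM25 and ADAR. ADAR lay at 0.01 in this comparison under quantile normalisation. By voom BST2 did not pass (0.38, adjusted p = 0.0803) and IFIT3 did (0.55, adjusted p = 0.0264). The count higher fell to 4 without olaparib replicate 2 and to 5 without combination replicate 2. Adding olaparib to palbociclib gave 0 calls by limma, where 0.0241% of all genes passed (0.00804% higher and 0.0161% lower), and 4 members had an unadjusted p under 0.05 (STAT2, IFIT1, TRIM21 and IFIT5). Of these, voom on the recovered reads called STAT2 higher and IFIT1 lower. The departure from additivity, which is the combination minus the sum of the single-drug changes, passed for 0 members by limma and 0 by voom, where 0.00804% of all genes passed. The unadjusted p was under 0.05 for UBE2L6, IFIT1 and BST2, all 3 with less than the sum. The share of all genes with an unadjusted p under 0.05 was not counted for either test.

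Among the sensors and editors of RNA, DDX58 and its relative IFIH1 (MDA5) detect double-stranded RNA, TRIM25 activates DDX58, and ADAR edits adenosines in double-stranded RNA and so hides the cell's own RNA from these sensors. DDX58 measured 1.46 and 1.38 FPKM in DMSO, 1.79 and 1.78 on olaparib, 1.97 and 2.05 on palbociclib, and 2.37 and 1.96 on both drugs. Every treated library lay above both DMSO libraries. The change passed with palbociclib (0.32 ± 0.08, limma adjusted p = 0.0158) and with the combination (0.39 ± 0.08, limma adjusted p = 0.00553), but the palbociclib call was lost without either DMSO or either palbociclib library. That call was lost also under quantile normalisation (0.22, limma adjusted p = 0.05565) and without a filter on low values (limma adjusted p = 0.05535). ADAR measured 84.2 and 83.6 FPKM in DMSO, 78.1 and 79.2 on olaparib, 71.2 and 71.7 on palbociclib, and 69.4 and 70.2 on both drugs. The groups were separate, with DMSO highest and the combination lowest. As deposited, ADAR fell by 0.23 on the log2 scale with palbociclib (SE 0.03, limma adjusted p = 0.000873) and by 0.26 with the combination (SE 0.03, limma adjusted p = 0.000329), and under quantile normalisation neither passed, at −0.02 and 0.03. TRIM25 measured 28.80 and 29.02 FPKM with DMSO, 28.3 in both olaparib libraries, 24.3 and 24.9 on palbociclib, and 23.3 and 23.4 on both drugs, so that both groups with palbociclib lay below both without it. It changed by −0.22 ± 0.03 with palbociclib and −0.30 ± 0.03 with the combination (limma adjusted p = 0.00119 and 0.000238), and both calls were lost under quantile normalisation. TRIM25 exons overlap 80 bases of DGKE on the opposite strand and 132 bases of C17orf67, both of which fell with palbociclib (−0.44 and −0.17), and their part in the TRIM25 values was not tested. IFIH1 had 2 to 5 reads in a library, at most 0.0503 FPKM.

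STAT2 was the transcription factor of the set that changed. It lies on chromosome 12 at 56341597 to 56360155 (GRCh38) and is the subunit of ISGF3 that activates transcription. STAT2 measured 3.89 and 3.68 FPKM in DMSO, 4.58 and 4.62 on olaparib, 6.39 and 6.89 on palbociclib, and 8.46 and 7.84 on both drugs. The 4 groups did not overlap and lay in that order from low to high. Its change was 0.23 ± 0.06 with olaparib, 0.68 ± 0.06 with palbociclib and 0.94 ± 0.06 with the combination (limma adjusted p = 0.0379, 0.000125 and 0.000024). The combination exceeded palbociclib by 0.26 (95% interval 0.13 to 0.39; limma adjusted p = 0.135), which did not pass, and by voom it did (adjusted p = 0.0217). The departure from additivity was 0.03 (95% interval −0.15 to 0.21). The DNA-binding partner IRF9 stayed low, at 0.157 to 0.277 FPKM and 17 to 30 reads in a library. IRF1, an activator of interferon genes, lay at 0.280 to 0.535 FPKM. IRF7, which drives interferon alpha genes, lay at 1.28 to 2.16 FPKM with both extremes in the palbociclib group, and passed in no comparison.

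The ISG15 system attaches ISG15 to proteins through UBE2L6 and HERC ligases, and USP18 removes it and also restrains the type I receptor. Its members moved in different directions. UBE2L6 measured 7.97 and 7.91 FPKM in DMSO, 9.42 and 10.3 on olaparib, 12.6 and 13.4 on palbociclib, and 11.5 and 12.8 on both drugs. All treated libraries were above both DMSO libraries, and the palbociclib and combination groups overlapped. The change was 0.28 ± 0.06 with olaparib, 0.65 ± 0.06 with palbociclib and 0.55 ± 0.06 with the combination (limma adjusted p = 0.0328, 0.000243 and 0.000326). The combination changed by 0.38 less than the sum of the single drugs (departure −0.38, 95% interval −0.59 to −0.17), with an unadjusted p of 0.00387 and a limma adjusted p of 0.429. USP18 measured 11.7 and 11.4 FPKM in DMSO, 12.03 and 13.65 on olaparib, 8.73 and 8.35 on palbociclib, and 8.99 and 9.72 on both drugs. The 4 libraries with palbociclib were below the 4 without it, and the olaparib libraries were highest. USP18 fell by 0.40 with palbociclib (SE 0.06, limma adjusted p = 0.00222) and by 0.28 with the combination (SE 0.06, limma adjusted p = 0.00851), the latter call being lost under TPM. Its close copy USP41 had at most 0.0851 FPKM in a library.

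ISG15 itself passed in no comparison with all 8 libraries, and without olaparib replicate 1 it was lower in the combination than with olaparib (−0.17, limma adjusted p = 0.0273). Its promoter, chosen after its values were seen, is shown because it is a classic ISRE promoter whose gene did not move with UBE2L6. The 160 bases before its start (GRCh38.p14, chr1:1013337-1013496, forward strand, RefSeq) have the ISRE core matches in capitals, here 2 that overlap.
ISG15: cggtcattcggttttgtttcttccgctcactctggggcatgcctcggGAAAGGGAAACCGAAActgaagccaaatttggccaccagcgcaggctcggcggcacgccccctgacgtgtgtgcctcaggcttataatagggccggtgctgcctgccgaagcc
ISG15 measured 18.4 and 17.8 FPKM in DMSO, 17.1 and 19.7 on olaparib, 17.9 and 17.8 on palbociclib, and 17.5 and 17.4 on both drugs. The olaparib libraries enclosed those of all other groups. Its change was −0.02 with palbociclib (95% interval −0.17 to 0.13) and −0.05 with the combination (−0.20 to 0.10), so a rise of the size seen for UBE2L6 lies outside both intervals. HERC6, of the HERC ligase family, was below the expression limit, at 0.388 and 0.322 FPKM with DMSO and 0.733 and 0.571 with the combination. It passed in that comparison when genes down to 0.1 FPKM were tested (0.29 ± 0.09, limma adjusted p = 0.0476) and not with all genes (limma adjusted p = 0.0800).

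**Figure D3:**
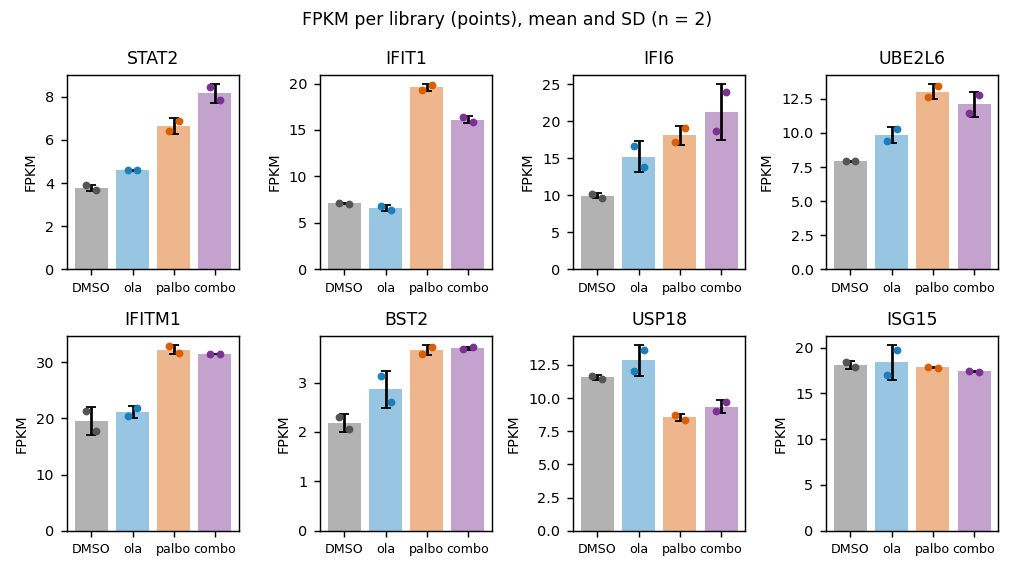
FPKM (vertical) of 8 members with DMSO, olaparib (ola), palbociclib (palbo) and the combination (combo); points are libraries, bars means and error bars SD with n = 2. STAT2 steps up through the 4 groups, IFIT1, IFITM1 and BST2 are high in the 2 groups with palbociclib, USP18 is low there, and ISG15 stays between 17.1 and 19.7 in every library.

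The oligoadenylate synthetases (OAS) make a small nucleotide messenger that sets off RNA decay in infected cells, and none of the 4 reached the expression limit. OAS3 was the highest, at 0.388 to 0.782 FPKM with 70 to 184 reads in a library. OASL, which lacks the enzymatic activity and binds DDX58, lay at 0.142 to 0.369 FPKM, and OAS2 had 0 to 4 reads. OAS1 had 0 reads in 6 of 8 libraries, where 3 reads, the limit that a count of 0 allows, would be 0.0187 to 0.0277 FPKM. The near neighbours OAS1, OAS3 and OAS2 lie within 104.946 kb on chromosome 12, so silence and low transcription occurred side by side in that cluster.

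The IFIT genes encode proteins that bind foreign RNA ends and block their translation, and the largest change among the tested members was in 1 of the 4. IFIT1 measured 7.14 and 7.07 FPKM in DMSO, 6.81 and 6.37 on olaparib, 19.3 and 19.9 on palbociclib, and 16.4 and 15.8 on both drugs. The 4 libraries with palbociclib stood far above the 4 without it, and the combination lay below palbociclib alone. The ratio of means to DMSO was 2.76 with palbociclib (log2 change 1.35 ± 0.04, limma adjusted p = 2.5e-05) and 2.27 with the combination (1.08 ± 0.04, limma adjusted p = 1.4e-05). The combination was lower than palbociclib by limma at −0.27 (95% interval −0.37 to −0.17) with an unadjusted p of 0.000455 and an adjusted p of 0.127, and by voom the adjusted p was 0.0070. IFIT2 measured 0.785 and 0.874 FPKM in DMSO, 0.870 and 0.914 on olaparib, 1.41 and 1.76 on palbociclib, and 1.66 and 1.37 on both drugs, again with the 4 libraries given palbociclib on top. It rose by 0.50 ± 0.11 and 0.46 ± 0.11 (limma adjusted p = 0.00729 and 0.00864), and the calls were lost without palbociclib replicate 2 and without combination replicate 1 respectively.

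IFIT3 and IFIT5, from the same cluster, passed in no comparison by limma on the values as deposited with all 8 libraries and no block. By voom on the recovered reads IFIT5 was lower with olaparib (−0.29, adjusted p = 0.0232; −0.24 by limma with the replicate block, adjusted p = 0.0428) and IFIT3 higher in the combination against olaparib (0.55, adjusted p = 0.0264), where limma also called it without olaparib replicate 1 (0.52, adjusted p = 0.0165). IFIT3 measured 1.78 and 1.54 FPKM with DMSO and 2.24 and 1.91 with palbociclib (0.21, 95% interval −0.12 to 0.54). IFIT5 measured 8.11 and 7.57 FPKM in DMSO, 7.08 and 5.91 on olaparib, 8.92 and 8.33 on palbociclib, and 7.85 and 6.32 on both drugs. The palbociclib change of IFIT5 was 0.12 (95% interval −0.13 to 0.38), an interval that lies wholly below that of IFIT1 (1.24 to 1.45). The 4 genes read in the forward direction on chromosome 10 from 89283694 to 89421001 in the order IFIT2, IFIT3, IFIT1 and IFIT5, with starts at 0, 44.2, 108.852 and 130.892 kb. IFIT1 and IFIT5, the neighbours with starts nearest to each other, thus had the largest and the smallest palbociclib change of the 4.

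**Figure D4:**
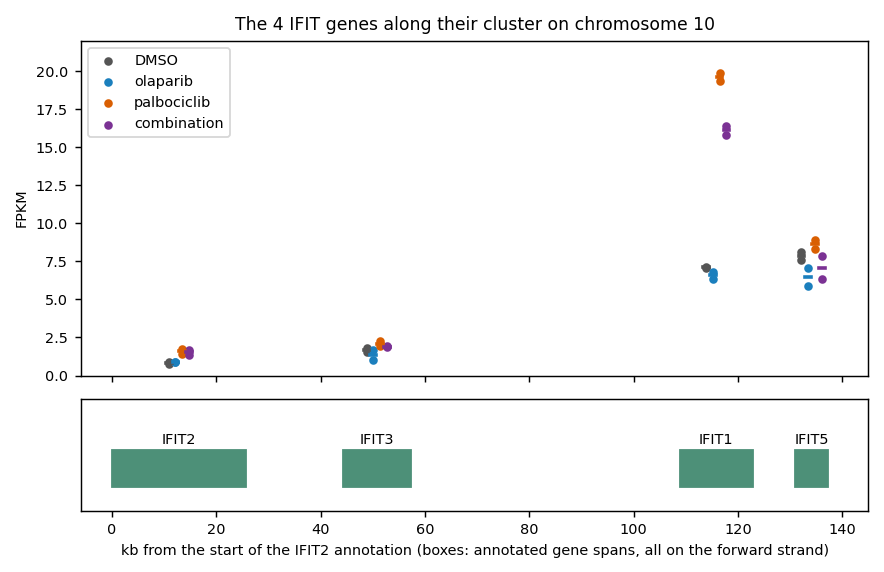
FPKM of the 4 IFIT genes (vertical; points are libraries, dashes group means) above their annotated spans, by distance in kb from the start of IFIT2. IFIT1 reads 19.3 and 19.9 FPKM with palbociclib against 7.14 and 7.07 with DMSO, while its neighbour IFIT5 stays between 5.91 and 8.92.

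The promoters of IFIT1 and IFIT5 both hold ISRE cores and are shown for that contrast, IFIT5 having been chosen after its values were seen. The 160 bases before each start lie on the forward strand of GRCh38.p14 (RefSeq), at chr10:89392463-89392622 for IFIT1 and chr10:89414408-89414567 for IFIT5, with the ISRE core matches in capitals.
IFIT1: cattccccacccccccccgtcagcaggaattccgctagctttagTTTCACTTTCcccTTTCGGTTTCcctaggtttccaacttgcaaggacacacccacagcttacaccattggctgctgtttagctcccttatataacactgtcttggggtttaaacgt
IFIT5: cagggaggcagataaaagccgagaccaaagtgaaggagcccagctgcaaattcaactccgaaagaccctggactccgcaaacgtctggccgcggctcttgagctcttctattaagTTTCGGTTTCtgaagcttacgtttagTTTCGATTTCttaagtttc
Each window holds 2 whole matches. A further IFIT5 match begins at −4 and runs past the window, so its whole promoter holds 3 against 2 for IFIT1. IFIT1, IFIT2 and IFIT3 lie within the annotated span of LIPA, a lysosomal lipase gene on the opposite strand, and the strand setting of the read counting is not stated in the sources used. LIPA measured 24.98 and 23.39 FPKM in DMSO, 20.7 and 19.7 on olaparib, 48.4 and 46.4 on palbociclib, and 43.8 and 40.2 on both drugs, and so was high in the same groups as IFIT1 (0.94 ± 0.06 with palbociclib). LIPA exons share 0 bases with those of IFIT1 and IFIT3 and 65 bases with those of IFIT2. IFIT2 also shares 356 exon bases with AL353751.1, a gene on its own strand with a mean of 0.922 FPKM. The part of LIPA or AL353751.1 in the IFIT values was not tested beyond that.

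The membrane proteins that block virus entry or release were the most abundant group, and they divided by treatment. IFITM1, which sits at the cell surface, measured 21.3 and 17.8 FPKM in DMSO, 20.5 and 21.9 on olaparib, 32.8 and 31.6 on palbociclib, and 31.4 and 31.5 on both drugs. The 4 libraries with palbociclib were all above the 4 without it. It rose by 0.70 ± 0.08 and 0.67 ± 0.08 (limma adjusted p = 0.000427 and 0.000362). BST2 (tetherin), which holds budding virus at the cell surface, measured 2.31 and 2.06 FPKM in DMSO, 3.13 and 2.60 on olaparib, 3.58 and 3.73 on palbociclib, and 3.67 and 3.71 on both drugs. Every treated library was above DMSO, and the groups with palbociclib were highest. Its change was 0.55 ± 0.08 with palbociclib and 0.56 ± 0.08 with the combination (limma adjusted p = 0.00123 and 0.000817). With olaparib it was 0.28 ± 0.08, which did not pass as deposited (limma adjusted p = 0.0569) and passed under TPM (0.41, limma adjusted p = 0.0451).

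IFITM2 and IFITM3, which act in endosomes, did not follow IFITM1 in the values as deposited. IFITM2 measured 30.7 and 27.5 FPKM in DMSO, 24.1 and 23.5 on olaparib, 32.3 and 30.6 on palbociclib, and 28.1 and 30.3 on both drugs. The olaparib libraries were lowest. IFITM3 measured 221 and 217 FPKM in DMSO, 186 and 195 on olaparib, 216 in both palbociclib libraries and 194 and 214 with the combination, with olaparib again lower than DMSO in both libraries. With olaparib IFITM2 fell by 0.28 (SE 0.06, limma adjusted p = 0.0328) and IFITM3 by 0.20 (SE 0.05, limma adjusted p = 0.0452), both calls being lost under quantile normalisation and TPM. With palbociclib the changes were 0.11 (95% interval −0.04 to 0.26) for IFITM2 and −0.02 (−0.14 to 0.10) for IFITM3. Under quantile normalisation both passed as higher with palbociclib, at 0.26 and 0.19, and with the combination, at 0.22 and 0.15. Under TPM IFITM2 passed with palbociclib (0.21, limma adjusted p = 0.0222). These genes are near-identical copies, and IFITM1 lies inside the annotated span of IFITM2 on the same strand with 351 shared exon bases, so the split of reads between them is uncertain.

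The promoters of IFITM1, IFITM3 and BST2 are shown because the first and the last rose with palbociclib and the other did not, as deposited. Each is the 160 bases before the start in the direction of the gene on GRCh38.p14 (RefSeq): chr11:313880-314039 on the forward strand for IFITM1, chr11:320861-321020 on the reverse strand for IFITM3 and chr19:17405631-17405790 on the reverse strand for BST2, with ISRE core matches in capitals.
IFITM1: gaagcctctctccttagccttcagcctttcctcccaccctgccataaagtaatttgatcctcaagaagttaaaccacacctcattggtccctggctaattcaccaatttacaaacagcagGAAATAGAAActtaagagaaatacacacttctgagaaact
IFITM3: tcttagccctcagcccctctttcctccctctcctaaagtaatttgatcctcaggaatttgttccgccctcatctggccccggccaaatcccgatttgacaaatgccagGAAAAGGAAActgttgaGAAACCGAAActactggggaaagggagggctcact
BST2: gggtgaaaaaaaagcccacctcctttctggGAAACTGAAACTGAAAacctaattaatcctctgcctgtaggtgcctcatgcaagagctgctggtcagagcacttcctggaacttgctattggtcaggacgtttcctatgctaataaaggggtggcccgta
The windows hold 1, 2 and 2 whole matches, the last pair overlapping. A further IFITM1 match begins at −6 and runs past the window, so its whole promoter holds 2. Over all members with a promoter, 4 of the 7 that rose with palbociclib had an ISRE core, as had 7 of the 8 that did not pass and 0 of the 2 that fell. DDX58, STAT2 and UBE2L6, which rose, had none of these letters in the window, as had TRIM25 and ADAR.

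PARP9, PARP12 and PARP14 are ADP-ribosyltransferase family members induced by interferon, and DTX3L is the ubiquitin ligase that pairs with PARP9. By limma on the values as deposited, with all 8 libraries, PARP14 and DTX3L passed in none of the comparisons, olaparib included. PARP9 and PARP12 averaged below 1 FPKM and had no test in the main analysis. PARP14 measured 2.47 and 2.49 FPKM in DMSO, 2.96 and 2.77 on olaparib, 2.83 and 2.95 on palbociclib, and 3.03 and 2.70 on both drugs. All 6 treated libraries were above both DMSO libraries, and the changes were 0.15 to 0.16 (limma adjusted p = 0.157, 0.0750 and 0.0847). By voom on the recovered reads PARP14 passed in all 3 comparisons with DMSO (adjusted p = 0.0423, 0.0109 and 0.0220). Under TPM it passed with palbociclib and with the combination (0.29 and 0.31, limma adjusted p = 0.0283 and 0.0185), and without combination replicate 2 it passed with the combination (0.21, limma adjusted p = 0.0490). DTX3L measured 2.076 to 2.496 FPKM over the 8 libraries and passed with the combination under TPM alone (0.27, limma adjusted p = 0.0261), and PARP9 measured 0.837 to 1.12. DTX3L and PARP9 overlap head to head on opposite strands with 217 shared exon bases, so reads there cannot be told apart without strand. PARP12 had 5 reads in all.

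Several textbook antiviral effectors were close to absent. MX1 and MX2, GTPases that trap viral nucleocapsids, had 3 and 7 reads in the 8 libraries together. SAMD9, an antiviral translation repressor, had 2 reads, and the exonuclease ISG20 had 5 to 16 in each library (0.0230 to 0.0929 FPKM). MX1 had 0 reads in 6 of 8 libraries, and the 3 reads that a count of 0 allows would be 0.0107 to 0.0159 FPKM. TRIM21, a cytosolic antibody receptor, was the expressed member of this group at 1.40 and 1.95 FPKM with DMSO and 2.11 and 2.19 with the combination, a change of 0.24 that did not pass (95% interval −0.0015 to 0.49, limma adjusted p = 0.0826). It passed without DMSO replicate 2 (0.39, limma adjusted p = 0.0166) and under TPM (0.45, limma adjusted p = 0.0297).

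IFI6 and IFI27 are related small mitochondrial proteins that differed greatly in level. IFI6 measured 10.2 and 9.71 FPKM in DMSO, 16.7 and 13.8 on olaparib, 17.2 and 19.0 on palbociclib, and 18.6 and 24.0 on both drugs. All 6 treated libraries were above DMSO. Among the tested members IFI6 had the largest olaparib change. It rose by 0.80 ± 0.13 with palbociclib and 1.01 ± 0.13 with the combination (limma adjusted p = 0.00199 and 0.000496), a ratio of means to DMSO of 2.14 for the latter. The departure from additivity was −0.35 (95% interval −0.77 to 0.08). IFI27 measured 0.111 and 0.0980 FPKM in DMSO, 0.701 and 0.177 on olaparib, 0.384 and 0.234 on palbociclib, and 0.220 and 0.343 on both drugs, from 12 to 68 reads. All treated libraries were above DMSO, but the olaparib libraries differed from each other by more than any pair of group means. It had no test in the main analysis, and with genes down to 0.1 FPKM included the limma adjusted p with olaparib was 0.324.

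The promoters of IFI6 and IFI27 show the same core in an expressed gene and in its weakly expressed relative. Each is the 160 bases before the start on GRCh38.p14 (RefSeq), chr1:27672193-27672352 on the reverse strand for IFI6 and chr14:94110576-94110735 on the forward strand for IFI27, with ISRE core matches in capitals.
IFI6: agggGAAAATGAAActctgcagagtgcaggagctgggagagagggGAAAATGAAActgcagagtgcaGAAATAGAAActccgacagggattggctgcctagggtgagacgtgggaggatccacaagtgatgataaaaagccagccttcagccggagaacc
IFI27: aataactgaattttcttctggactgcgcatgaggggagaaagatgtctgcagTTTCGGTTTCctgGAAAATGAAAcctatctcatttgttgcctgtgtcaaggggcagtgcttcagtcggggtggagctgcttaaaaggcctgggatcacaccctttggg
IFI6 holds 3 matches and IFI27 holds 2. IFI35 measured 2.76 and 2.56 FPKM in DMSO, 2.99 and 3.38 on olaparib, 3.16 and 3.34 on palbociclib, and 3.36 and 3.86 on both drugs. All treated libraries lay above DMSO, and the combination passed (0.33 ± 0.08, limma adjusted p = 0.00854), though not without DMSO replicate 2. Palbociclib alone did not pass (0.22 ± 0.08, limma adjusted p = 0.0511), but did under TPM (0.36, limma adjusted p = 0.0121), with pseudocount 0.1 and with the replicate block. The combination minus palbociclib was 0.11 (limma adjusted p = 0.499). IFI44 and IFI44L, neighbours on chromosome 1, lay at 0.0332 to 0.189 and 0.234 to 0.380 FPKM. The apoptosis factor XAF1 had 10 reads in all, and the secreted glycoprotein gene LGALS3BP lay at 0.257 to 0.835 FPKM with both extremes of its treated libraries in the olaparib group.

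Upstream of these genes, the ligands were close to undetected and the receptor pathway was present. Of 21 interferon genes listed, 1 had a row, IFNL1, with 2 reads in each of 2 libraries and 0 in the other 6. Of 10 receptor, JAK and STAT genes 9 were expressed and IFNLR1 was not (0.529 FPKM). With palbociclib 4 of these 9 rose and 0 fell, where 50.1% of all genes passed, 18.7% higher and 31.4% lower. With the combination 4 rose and 0 fell, where 21.5% of all genes were higher and 35.3% lower. TYK2, the kinase bound to the receptor chain IFNAR1, measured 17.8 and 17.9 FPKM in DMSO, 20.1 and 21.2 on olaparib, 25.5 and 25.6 on palbociclib, and 25.04 and 26.79 on both drugs, all treated libraries being above DMSO. By limma on the values as deposited TYK2 rose in all 3 treatments, by 0.20, 0.49 and 0.51 (limma adjusted p = 0.0308, 0.000175 and 9.11e-05). STAT3 also rose in all 3, by 0.32, 0.38 and 0.53. Whether the calls of these upstream genes and of the further lists below held under other filters and scalings or with 1 library left out was not examined. The receptor chains IL10RB (0.32) and IFNGR2 (0.12) rose with palbociclib, and IL10RB (0.35) and JAK1 (0.25) with the combination. The type I receptor chains IFNAR1 and IFNAR2 measured 7.43 to 8.39 and 2.30 to 3.22 FPKM, and with IFNGR1 and JAK2 passed in none of the comparisons with DMSO by limma.

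**Figure D5:**
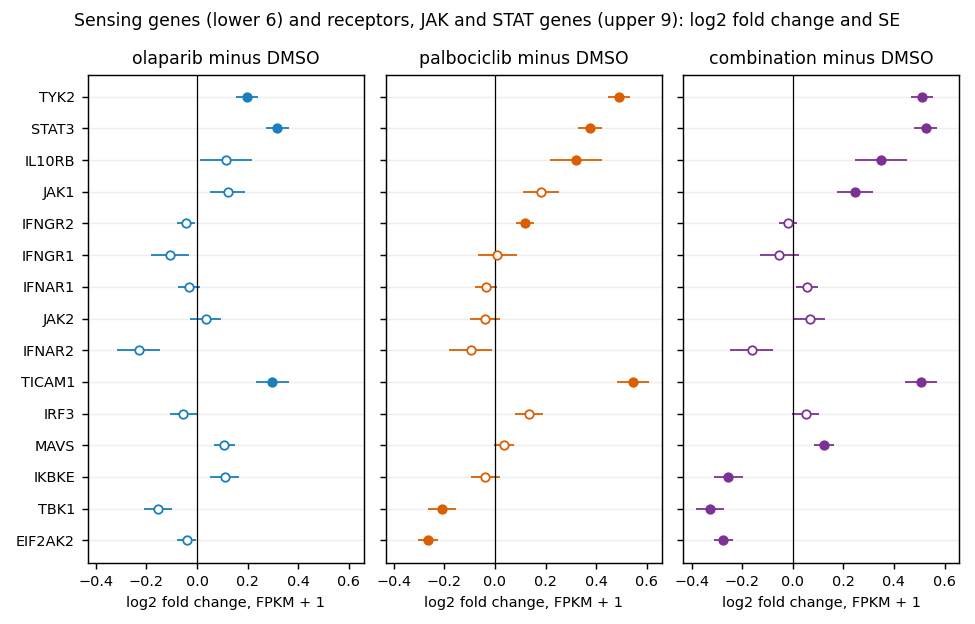
Log2 fold change of FPKM + 1 (horizontal, with SE) for 9 receptor, JAK and STAT genes (upper rows) and 6 nucleic acid sensing genes (lower rows) in each treatment against DMSO; filled points passed limma at an adjusted p under 0.05. TYK2 and STAT3 passed as higher in all 3 panels as deposited, and IFNAR1 and IFNAR2 passed in none. Other filters and scalings were not examined for these genes.

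The sensing machinery was present in part. Of 16 listed genes 15 had a row and 6 were expressed, while the DNA sensor CGAS (0.0381 FPKM) and its partner TMEM173 (STING, 0.0186 FPKM) were near silent, as were IFI16, AIM2, TLR7, TLR9 and DHX58. With palbociclib 1 of the 6 rose and 2 fell, where 18.7% of all genes were higher and 31.4% lower, and with the combination 2 rose and 3 fell, where 21.5% were higher and 35.3% lower. TICAM1, the adaptor of TLR3, rose by 0.55 and 0.51, while the RNA-activated kinase EIF2AK2 (PKR) changed by −0.26 and −0.28 and the kinase TBK1, which activates IRF3, by −0.21 and −0.33. Of 10 expressed negative regulators, 1 rose and 4 fell with palbociclib, and 2 rose and 4 fell with the combination, shares near the 50.1% and 56.8% of all genes that passed. The subunits of RNase H2, which removes ribonucleotides from DNA, were among those lower: RNASEH2A measured 55.2 and 59.7 FPKM with DMSO and 37.2 and 38.5 with palbociclib (−0.59 ± 0.06, limma adjusted p = 0.000369). RNASEH2B and RNASEH2C changed by −0.43 and −0.27. The phosphatase PTPN6 rose by 0.49 and PTPN2 changed by −0.24.

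A further list of 40 interferon-induced genes, of which 33 had a row and 12 were expressed, showed no common direction. With olaparib 1 was higher and 2 lower, with palbociclib 3 and 3, and with the combination 4 and 5, where 14.6%, 50.1% and 56.8% of all genes passed. With the combination PNPT1, a mitochondrial RNA nuclease, changed by −0.63 ± 0.05 and TRIM14, an adaptor of antiviral signalling, by −0.50 ± 0.05, while TRIM5, a capsid-binding restriction factor, rose by 0.41 ± 0.10 and the transcription factor BATF2 by 0.38 ± 0.07 (limma adjusted p = 5.37e-05, 0.000175, 0.0128 and 0.00259). The median change of the 12 with the combination was −0.07, against 0.15 for the 21 members above and −0.06 for all genes.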

How the data were processed

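PolyA RNA of 8 A2780 libraries was measured. The authors deposited FPKM values for 31721 Ensembl genes. CASAVA 1.8, STAR 2.5.1b, HTSeq 0.6.0 and GRCh38 are named without role, per the submitters' processing notes. With GENCODE v29 exon lengths, whole reads (within 0.01) came out for 90.3% of genes, and 3085 more by a searched length. The deposited scaling equalled median-of-ratios size factors of those reads. log2(FPKM + 1) was fitted for 12443 genes (mean FPKM at least 1; 19278 dropped) over all 8 libraries in limma 3.58.1 (R 4.3.3; eBayes with trend; 4 residual and 3.01 prior degrees of freedom), two-sided, for 6 comparisons, Benjamini-Hochberg adjusted over all tested genes, threshold 0.05. Errors of changes are SE. The scale understates changes of low genes. The fit was tested on simulated data. The members, lists and tests were chosen with earlier results of these data known. Values per library are given for members that passed against DMSO and for their role groups. Alternatives were other pseudocounts, filters and scalings, voom on the recovered reads, a replicate block and leaving out each library. Of the pathway lists, 2 genes are not reported here, and list counts leave them out.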

Additional observations from a re-analysis of the deposited data

How the results depend on the processing

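Counts of members called were recomputed under 15 alternatives. With olaparib, the 3 higher and 2 lower became 0 and 0 without a filter and with the filter at 0.1 FPKM, and the 2 lower became 0 under quantile normalisation and TPM; leaving out 1 library gave 0 to 3 higher and 0 to 2 lower. Under quantile normalisation the 3 members lower with palbociclib and with the combination became 1 and 1, and 4 single changes reversed: IFITM3 with palbociclib (0.19) and with the combination (0.15), and ADAR in the combination against DMSO (0.028) and against olaparib (0.014). The cause was not tested. The combination against olaparib had 5 higher without a filter and 4 to 9 with 1 library left out. The combination against palbociclib had 1 higher and 1 lower with voom on the recovered reads. The number of expressed members ran from 16 (limit 2 FPKM) to 28 (limit 1 TPM, a lower bar than 1 FPKM in these libraries), and from 21 to 22 with 1 library left out. Replicate numbers did not pair the libraries (correlations of deviations from −0.0467 to 0.0342). A fit with the replicate block gave 3 higher and 3 lower with olaparib (adding IFIT5) and 9 higher and 3 lower with palbociclib (adding IFI35). Depth limits the 9 near-silent members, for which no direction is given, and with 2 libraries a group a single library decides the smaller calls.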
